A study of Mus musculus with 22 samples.

Results

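The genes described here encode ion and metal transporters of the solute carrier (SLC) superfamily, read in mRNA pulled down to represent optic nerve astrocytes. They are the protein coding genes of the count table whose symbol begins with Slc4a, Slc8a, Slc9a, Slc11a, Slc12a, Slc20a, Slc24a, Slc26a, Slc30a, Slc31a, Slc34a, Slc39a, Slc40a or Slc41a, which gave 85 of 29367 genes, or 85 of the 351 protein coding Slc genes. By family there were 21 bicarbonate and anion exchangers, 8 sodium/calcium exchangers, 11 sodium/proton exchangers, 9 cation-chloride cotransporters, 23 zinc transporters, 5 iron and copper transporters, and 8 phosphate and magnesium transporters. Of these, 3 are not transporters but proteins that bind one, namely Slc9a3r1 and Slc9a3r2 (the scaffolds NHERF1 and NHERF2) and Slc4a1ap (kanadaptin).

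The libraries hold mRNA pulled down with HA-tagged ribosomes from the optic nerve head (ONH), the unmyelinated region where the nerve leaves the eye, and the optic nerve proper (ONP), the myelinated part behind it. All mice carried the ribotag allele of B6J.129(Cg)-Rpl22tm1.1Psam/SjJ on both chromosomes and the Cre of the transgenic GFAP-Cre line 73.12Mvs/J, were on a C57Bl/6 background, were 3 to 4 months old and had received microbeads into one eye, which raise the intraocular pressure (IOP). Tissue was taken 7 days (n = 4 libraries per region) or 30 days (n = 7 per region) after the injection, and each of the 22 libraries pooled 4 mice, 2 male and 2 female. Uninjected animals were not analysed here, so every group carries the injury and none is a baseline. Because a GFAP promoter drives Cre constitutively, a cell that expressed it earlier in development stays tagged.

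Ion transporters of these families set the volume, pH and calcium of a cell. Astrocytes take up bicarbonate, exchange sodium for protons, move chloride with sodium and potassium, and buffer metals that are toxic when free and needed as cofactors. Zinc importers of the ZIP type (Slc39a) bring zinc into the cytosol and zinc exporters of the ZnT type (Slc30a) move it out or into organelles, while copper enters through Slc31a1 and iron through Slc11a2 and leaves through Slc40a1.

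Libraries held 16292489 to 33307092 counts. Levels are given in CPM, the counts scaled to a common library total after TMM normalization, as mean ± SD over libraries, and the detection limit was set at 3 counts, or 0.0901 to 0.184 CPM. Each comparison used the quasi-likelihood test of edgeR, with p-values adjusted by Benjamini-Hochberg across every gene in the fit (threshold 0.05, no cutoff on the log2 fold change, log2FC). The low-count filter kept 68 members in the ONH 30 vs 7 day comparison, 65 in the ONP one, 67 for ONH vs ONP at 30 days and 66 at 7 days. The 17 members that never passed it reached at most 55 counts in any library and included kidney and gut transporters such as Slc12a1, Slc12a3, Slc34a1 and Slc26a3. All 10 astrocyte markers were detected in every library, with Gfap between 8775 and 23068 CPM. They summed to 16021 to 22295 CPM in the ONP at 7 days and 15691 to 33588 CPM in the ONP at 30 days. In the ONH they summed to 15134 to 27697 CPM at 7 days and 17277 to 27378 CPM at 30 days. Markers of other cells were present as well. The 10 oligodendrocyte markers summed to 82800 to 108261 CPM in the ONP at 7 days, 26121 to 84745 CPM in the ONP at 30 days, and 13870 to 41828 CPM in the ONH. In the ONP at 7 days every library thus held more of these oligodendrocyte marker reads than of the astrocyte marker reads. The 10 markers of pigment cells and retinal pigment epithelium summed to 330 to 3935 CPM in the ONH and 79.7 to 184 CPM in the ONP, and the 10 photoreceptor markers to 160 to 6106 CPM and 25.1 to 166 CPM. In such bulk libraries fewer cells of a type and less RNA per cell cannot be told apart.

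Zinc transporters, the largest family with 23 genes, made up the largest share of this transporter expression when summed by family. Per kb of exon, their summed level was 311 ± 32.6 CPM per kb in the ONH at 7 days, 325 ± 33.3 in the ONH at 30 days, 320 ± 19.4 in the ONP at 7 days and 315 ± 42.9 in the ONP at 30 days, against 10.8 to 23.1 CPM per kb for the group means of the sodium/calcium exchangers. The highest single member was Slc39a7 (ZIP7, which releases zinc from the endoplasmic reticulum), with 131 CPM per kb over the 22 libraries. It was followed by Slc39a12 (ZIP12, a plasma membrane zinc importer) with 64.8, Slc9a3r1 with 43.7, Slc31a2 (CTR2, a copper transporter of internal membranes) with 43.3 and Slc20a2 (PiT2, a sodium-phosphate cotransporter) with 35.8 CPM per kb.

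**Figure D1:**
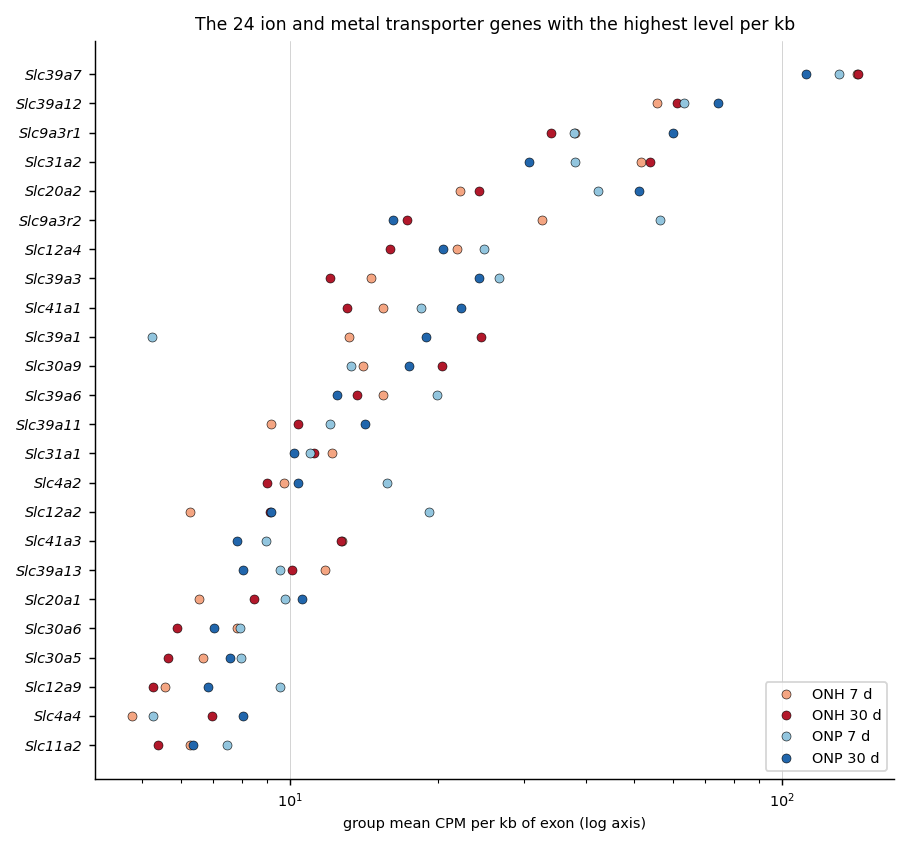
The 24 members with the highest level per kb of exon, with one point for each group mean (CPM per kb on a log axis; ONH in orange and red, ONP in light and dark blue, the darker shade at 30 days). Slc39a7 sits above 100 CPM per kb in all 4 groups, and Slc39a1, Slc9a3r2 and Slc12a2 show wide gaps between their group means.

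Several abundant members had no call for time by edgeR. Slc4a4 (NBCe1, the sodium-bicarbonate cotransporter best known in astrocytes) was at 28.3 to 68.9 CPM in the ONH at 7 days, 48.2 to 104 at 30 days, 52.2 to 66.1 in the ONP at 7 days and 50.2 to 122 at 30 days. These ranges overlapped, and its log2FC for 30 vs 7 days was 0.51 ± 0.28 (SE) in the ONH (adjusted p = 0.424) and 0.58 ± 0.22 in the ONP (adjusted p = 0.0842), where DESeq2 (log2FC 0.61) and scaling by library size (0.70) did call it. Slc30a9 (ZnT9, a zinc exporter of mitochondria) was at 175 ± 39.9 CPM in the ONH at 7 days and 253 ± 41.3 at 30 days, with a log2FC of 0.50 ± 0.17 and an adjusted p of 0.249. Slc12a4 (KCC1, a potassium-chloride cotransporter) lay between 44 and 117 CPM in all 22 libraries and passed the threshold in none of the comparisons without a block. With the replicate number, taken to mark tissue of the same mice, as a block it passed for ONH vs ONP at 30 days (log2FC -0.41, adjusted p = 0.0165, against -0.36 ± 0.19 and 0.141 without it).

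The largest differences lay between the regions. At 30 days 34 of 67 members tested passed the threshold for ONH vs ONP, 13 higher in the ONH (21.8% of all genes tested were called higher) and 21 lower (20.0% of all genes), and the median log2FC was -0.23 for the members and -0.01 for all genes. At 7 days 4 members were higher (6.34% of all genes) and 8 lower (6.81%) of 66 tested. The groups did not overlap for 6 members higher (9.26% of all genes) and 8 lower (7.09%) at 30 days. At 7 days they did not overlap for 6 higher (9.89%) and 12 lower (11.8%). DESeq2 called 14 of 74 members higher (18.8%) and 23 lower (17.9%) at 30 days, and 7 of 69 higher (9.79%) and 10 lower (9.19%) at 7 days. With libraries scaled by size only, which moved the median of all genes at 7 days by 0.11, 6 members were higher and 8 lower at that time, and without ONP library 2 or 5 the number lower was 5. With the replicate as a block at 30 days, Slc12a4, Slc12a7 and Slc4a10 were added to the members lower in the ONH (log2FC -0.41, -0.52 and -2.53, adjusted p = 0.0165, 0.0449 and 0.035) and Slc39a13 was lost.

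Among the bicarbonate and sodium/calcium exchangers, 3 members were low in the ONP and higher in the ONH. Slc24a1 (NCKX1, the potassium-dependent sodium/calcium exchanger of rod photoreceptors) was at 14.9, 4.28, 56.5 and 123 CPM in the ONH libraries 1, 3, 5 and 6 at 7 days, and at 2.59, 5.84 and 52.3 CPM (lowest, median, highest) in the ONH at 30 days. In the ONP it was at 1.35, 2.10, 2.38 and 0.45 CPM at 7 days and at 0, 0.292 and 0.743 CPM at 30 days, where the 7 libraries held 41 counts together. The regions did not overlap at either day. The log2FC of ONH vs ONP was 5.0 ± 0.97 (SE) at 7 days (adjusted p = 0.0072) and 5.50 ± 0.82 at 30 days (adjusted p = 9.76e-05), and limma-voom did not call it at 7 days.

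Slc24a5 (NCKX5, the exchanger of melanosomes) was at 20.0, 3.56, 21.9 and 38.8 CPM in the ONH at 7 days and at 2.70, 9.05 and 24.9 CPM at 30 days. The ONP libraries held 0.123, 1.02, 0.123 and 0.225 CPM at 7 days (27 counts together) and 0.0558 to 0.879 CPM at 30 days (61 counts together). Every ONH library was above every ONP library, and the log2FC was 5.89 ± 0.89 at 7 days (adjusted p = 0.00188) and 4.84 ± 0.60 at 30 days (adjusted p = 2.08e-05). Exons of Slc24a5 share 921 bases (39.5% of its exon length) with Myef2 on the opposite strand, and the counting is not stated to use strand. The overlapped gene held 18317 counts over all libraries against 3366 for Slc24a5.

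Slc4a5 (NBCe2, a sodium-bicarbonate cotransporter of choroid plexus and other epithelia) was at 11.3, 2.63, 4.5 and 14 CPM in the ONH at 7 days and 0.809 to 6.76 CPM at 30 days. In the ONP, 3 of 4 libraries at 7 days were at 0 and library 2 was at 1.02 CPM, and at 30 days the range was 0 to 0.311 CPM, with 5 of 7 libraries at or under 3 counts. The log2FC was 5.10 ± 1.35 at 7 days (adjusted p = 0.0318) and 4.52 ± 0.67 at 30 days (adjusted p = 9.34e-05). The call at 7 days was lost in 5 of 8 fits that left out a library (ONH libraries 1 and 6, ONP libraries 1, 5 and 6), with a log2FC of 4.62 to 10.49.

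Photoreceptor and pigment markers moved with these genes. All 10 photoreceptor markers were called higher in the ONH at 30 days and 8 of 9 tested at 7 days, and 9 of 10 pigment markers were called higher at both days. In the ONP Pde6a, Rcvrn, Cnga1 (photoreceptor) and Tyrp1 and Mlana (pigment) were at 0 in at least 1 library at each day. Within the ONH, the libraries with the highest photoreceptor sums (6106 CPM in library 6 and 1805 CPM in library 5 at 7 days, 2672 CPM in replicate 4 at 30 days) were those with the highest Slc24a1 (123, 56.5 and 52.3 CPM). The highest pigment sums, 3935 CPM in library 6 at 7 days and 2356 CPM in replicate 4 at 30 days, stood beside 38.8 and 24.9 CPM of Slc24a5. The part of these cells in the region difference was not tested.

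**Figure D2:**
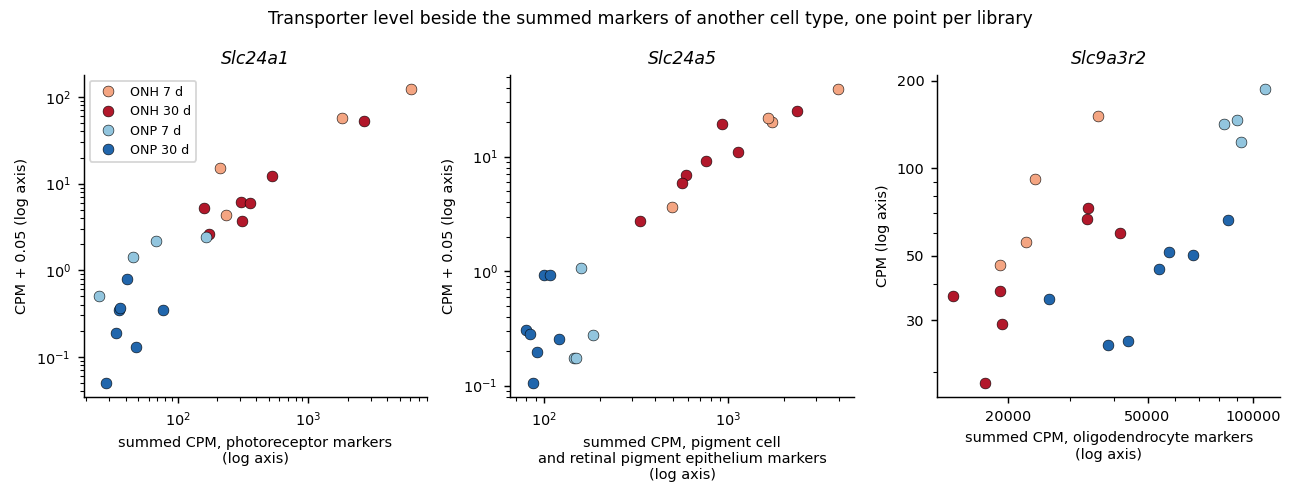
Level of 3 members (CPM, log axis; 0.05 CPM was added for Slc24a1 and Slc24a5) against the summed CPM of 10 markers of another cell type (log axis), one point per library. ONH libraries with more photoreceptor or pigment marker reads hold more Slc24a1 or Slc24a5, and in the ONP Slc9a3r2 is at 123 to 187 CPM in the 7 day libraries and at most 66.5 CPM at 30 days, where 1 library has an oligodendrocyte sum within the 7 day range. In the ONH at 7 days Slc9a3r2 is at 151 CPM in library 6 and 92.1 CPM in library 5, at oligodendrocyte sums of 36038 and 23822 CPM.

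The regions upstream of these 3 genes, and of Slc39a1, the zinc transporter with the largest increase over time in the ONP, are shown as the 250 bases before the annotated start (RefSeq, GRCm38.p6, read 5′ to 3′ on the strand of the gene). Capitals mark matches on either strand to CATGTG (an E-box of the type bound by MITF), TAATCC (the core bound by CRX), TGCACNC or TGCGCNC (metal response cores) or TATAAA. No searched motif overlaps another in these windows.
Slc24a1 (chr9:64951621-64951870, minus strand): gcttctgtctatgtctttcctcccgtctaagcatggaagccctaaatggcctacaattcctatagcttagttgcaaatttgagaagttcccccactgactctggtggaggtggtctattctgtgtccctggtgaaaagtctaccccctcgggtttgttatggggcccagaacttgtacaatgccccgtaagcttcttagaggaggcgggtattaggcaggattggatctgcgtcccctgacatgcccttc
Slc24a5 (chr2:125067877-125068126, plus strand): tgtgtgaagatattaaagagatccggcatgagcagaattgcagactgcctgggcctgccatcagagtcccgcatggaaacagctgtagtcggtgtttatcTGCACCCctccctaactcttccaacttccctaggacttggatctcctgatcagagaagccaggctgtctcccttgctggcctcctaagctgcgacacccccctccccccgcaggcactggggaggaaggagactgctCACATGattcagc
Slc4a5 (chr6:83237125-83237374, plus strand): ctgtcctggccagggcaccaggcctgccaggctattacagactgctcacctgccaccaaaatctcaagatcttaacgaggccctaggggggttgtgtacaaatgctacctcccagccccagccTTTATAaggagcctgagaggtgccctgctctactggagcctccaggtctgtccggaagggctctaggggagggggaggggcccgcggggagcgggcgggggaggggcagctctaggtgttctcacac
Slc39a1 (chr3:90247942-90248191, plus strand): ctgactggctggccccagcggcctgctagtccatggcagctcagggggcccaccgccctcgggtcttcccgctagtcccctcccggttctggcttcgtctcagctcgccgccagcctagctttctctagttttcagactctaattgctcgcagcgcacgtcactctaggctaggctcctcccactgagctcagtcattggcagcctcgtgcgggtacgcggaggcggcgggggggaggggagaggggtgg
The CATGTG match of Slc24a5, read on the opposite strand, lies 13 to 8 bases before the start, and 12.3% of 32851 windows of this length hold that motif. Slc24a5 also holds TGCACNC (10.4% of windows). Slc4a5 holds TATAAA on the opposite strand 127 to 122 bases before the start (12.4% of windows), and none of the searched letters is in the windows of Slc24a1 and Slc39a1. The Slc4a5 window lies within the gene as placed by GENCODE M21 (chr6:83219828-83304945), so its RefSeq start is not the first base of that gene. Over the members, 68 of 85 had a window (85 windows in all), and TGCGCNC was in 18.8% of them against 12.5% of all windows, TGCACNC in 15.3%, CATGTG in 10.6% and TAATCC in 9.41% against 6.25%. A match of letters is a description only.

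The other sodium/calcium exchangers went the opposite way. At 30 days all 7 tested members of this family were called, Slc24a1 and Slc24a5 higher (21.8% of all genes) and 5 lower (20.0%) in the ONH. Slc24a2 (NCKX2, a plasma membrane exchanger) was at 6.24, 12.2 and 29.3 CPM (lowest, median, highest) in the ONH and 30.3, 54.6 and 101 in the ONP at 30 days, without overlap, and its log2FC was -1.92 ± 0.31 (adjusted p = 0.000178). At 7 days the values were 16.9, 8.97, 19.8 and 41.3 CPM in the ONH against 75.2, 93.2, 94.6 and 106 in the ONP (log2FC -2.07 ± 0.39, adjusted p = 0.00587). Slc24a4 (NCKX4) was at 2.40 to 6.48 CPM in the ONH and 9.18 to 27.6 CPM in the ONP at 30 days (log2FC -2.12 ± 0.28, adjusted p = 3.92e-05), while the ranges overlapped at 7 days (2.85 to 9.43 and 2.06 to 12 CPM, log2FC -0.53 ± 0.56, adjusted p = 0.575).

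Slc24a3 and the potassium-independent exchangers Slc8a1 (NCX1) and Slc8a3 (NCX3) of the plasma membrane were lower in the ONH at 30 days by smaller margins and with overlapping ranges. Their log2FC was -0.93 ± 0.32, -0.77 ± 0.27 and -1.19 ± 0.38. The call of Slc24a3 was lost in 5 of 14 fits without one library (ONH replicates 1, 2 and 3, ONP replicates 4 and 5) and that of Slc8a1 in 6 (ONH replicates 4 and 5, ONP replicates 1 to 4). Oligodendrocyte markers moved with this region difference, 8 of 10 being called lower in the ONH at 30 days and 10 of 10 at 7 days, and their part was not tested. Of the calcium pumps, which export calcium against its gradient, Atp2b1 was higher in the ONH at 30 days (111 ± 11.8 vs 67.4 ± 5.84 CPM, log2FC 0.72 ± 0.08) and Atp2c1, a Golgi pump, was lower (127 ± 28.1 vs 243 ± 15.6 CPM, log2FC -0.94 ± 0.14). These were the 2 calls among 6 tested, where 21.8% of all genes were called higher and 20.0% lower.

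**Figure D3:**
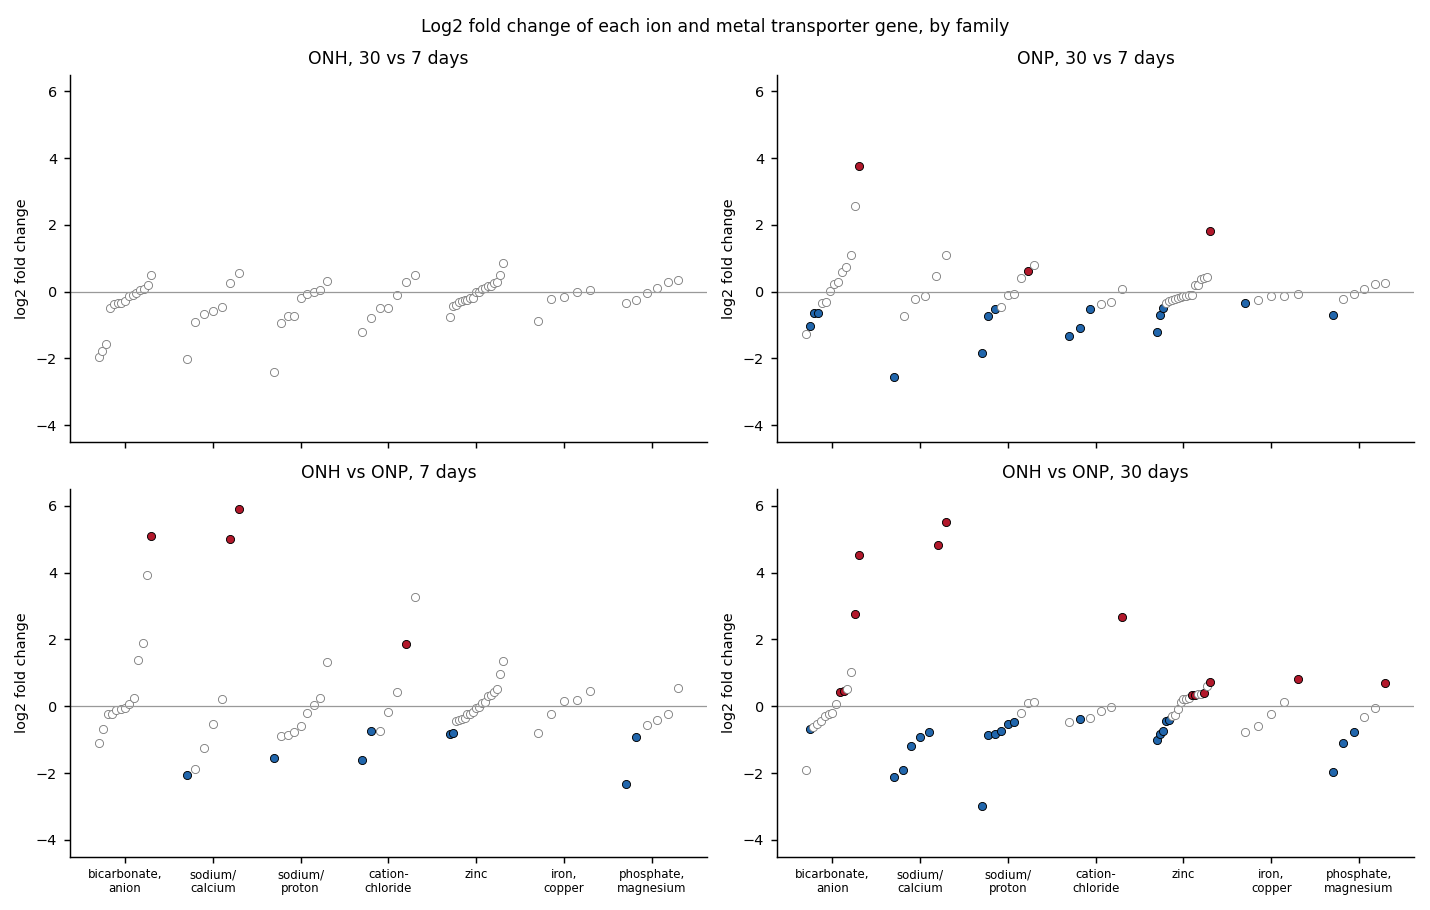
Log2 fold change of every member tested, by family, in 4 comparisons (filled points passed the threshold, red higher and blue lower; open points did not). No point is filled for ONH 30 vs 7 days, and for ONH vs ONP at 30 days all 7 sodium/calcium exchangers and 6 of 9 sodium/proton exchangers are filled.

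Of 9 sodium/proton exchangers and scaffolds tested, 6 were called lower in the ONH at 30 days (20.0% of all genes) and none higher (21.8%). At 7 days Slc9a9 was the 1 call, lower in the ONH (6.81% of all genes). The scaffold Slc9a3r1 was at 65.4 ± 5.83 CPM in the ONH and 116 ± 19.1 in the ONP at 30 days, with no overlap (log2FC -0.82 ± 0.12, adjusted p = 5.6e-05), and did not pass at 7 days (log2FC 0.03 ± 0.20). The other scaffold, Slc9a3r2, was not called at 30 days (45.9 ± 20.6 and 42.7 ± 15.2 CPM, log2FC 0.11 ± 0.29) or at 7 days (log2FC -0.78 ± 0.33, adjusted p = 0.148). Slc9a9 (NHE9, an exchanger of endosomes) was at 24.1, 12.5, 14.1 and 16.1 CPM in the ONH and 44.8, 48.4, 51.7 and 52.3 CPM in the ONP at 7 days. At 30 days the ranges were 16.6 to 26 and 29.2 to 41 CPM. The regions did not overlap at either day, with a log2FC of -1.54 ± 0.23 (adjusted p = 0.00195) and -0.73 ± 0.12 (adjusted p = 0.000151).

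Slc9a7 (NHE7, of the trans-Golgi network) and Slc9a8 (NHE8) had a log2FC of -0.86 ± 0.30 and -0.48 ± 0.17 at 30 days. Of 14 fits without one library, the call of Slc9a7 was lost in 6 (ONH replicates 1, 6 and 7, ONP replicates 1, 3 and 6; log2FC -1.06 to -0.71) and that of Slc9a8 in 5 (ONH replicates 2 and 4, ONP replicates 2, 5 and 6). Slc9a2 (NHE2, a plasma membrane exchanger) had the largest value, -2.98 ± 0.70 (adjusted p = 0.00315), at low levels of 0 to 1.46 CPM in the ONH and 1.35 to 10.4 CPM in the ONP, which overlapped. At 7 days its ranges were 0.598 to 8.35 and 1.3 to 5.88 CPM and its log2FC was 0.24 ± 0.83.

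Of the cation-chloride cotransporters, Slc12a8 stood apart in the ONH. This member, which differs in sequence from the classic chloride cotransporters, was at 45.3, 70.9, 38.1 and 44.9 CPM in the ONH and 15.4, 18.2, 9.35 and 13.3 CPM in the ONP at 7 days. At 30 days it was at 19.8, 27.1 and 58 CPM (lowest, median, highest) in the ONH and 2.54, 6.95 and 7.67 CPM in the ONP. No ONH library was as low as any ONP library of its day, and the log2FC was 1.85 ± 0.28 (adjusted p = 0.00179) and 2.66 ± 0.32 (adjusted p = 1.62e-05). Slc12a9, a member that binds other cotransporters, was lower in the ONH, with a log2FC of -0.37 ± 0.13 at 30 days and -0.75 ± 0.20 at 7 days. The call was lost in 3 of 14 fits without one library at 30 days (ONH replicate 5, ONP replicates 2 and 5) and in 5 of 8 at 7 days (ONH libraries 1 and 3, ONP libraries 2, 5 and 6; log2FC -0.84 to -0.67).

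Slc4a11, a proton and ammonia transporter of the bicarbonate family, was at 3.21, 8.96 and 13 CPM in the ONH at 30 days and 0.462, 0.779 and 2.68 CPM in the ONP. These ranges did not overlap (log2FC 2.76 ± 0.45, adjusted p = 0.000208). At 7 days 1 of 4 ONH libraries, library 5, was at 0.798 CPM and the others were at 9.87 to 16.2 CPM, and the log2FC of 1.90 ± 0.80 had an adjusted p of 0.147. Slc4a8 (NDCBE, which exchanges chloride for sodium and bicarbonate) and Slc4a1ap were also higher in the ONH at 30 days, by 0.44 ± 0.14 and 0.46 ± 0.15 on the log2 scale, the latter not without ONH replicate 1 or 6, and Slc4a3 (AE3, a chloride/bicarbonate exchanger) was lower by a log2FC of -0.67 ± 0.22, not called without ONP replicate 3 or 6. Carbonic anhydrases are the enzymes that interconvert carbon dioxide and bicarbonate. Of 11 tested, 4 were higher in the ONH at 30 days (21.8% of all genes) and 3 lower (20.0%). Car2, which oligodendrocytes hold in quantity, was at 924 ± 324 CPM in the ONH and 3154 ± 468 in the ONP at 7 days (log2FC -1.75 ± 0.24), and Car12, a surface enzyme of epithelia, was at 4.04 ± 3.58 and 0.502 ± 0.282 CPM at 30 days (log2FC 2.98 ± 0.57).

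Of the zinc transporters, 4 of 19 tested were higher in the ONH at 30 days and 5 lower, where 21.8% and 20.0% of all genes were. Slc39a3 (ZIP3, a zinc importer) was at 33.4, 51.4 and 57.5 CPM in the ONH and 83.1, 98.8 and 110 in the ONP (log2FC -1.0 ± 0.13, adjusted p = 3.2e-05), and at 7 days at 47.4 to 63.7 against 88.4 to 131 CPM (log2FC -0.84 ± 0.18, adjusted p = 0.0111). Slc39a9 (ZIP9, found at the Golgi and the cell surface) was at 20.3 to 43.3 CPM in the ONH and 51.1 to 59.6 in the ONP at 30 days (log2FC -0.83 ± 0.15, adjusted p = 0.000452). Neither gene overlapped between regions at 30 days. Slc39a14 (ZIP14, an importer of zinc, iron and manganese) was higher in the ONH, 31.1 ± 9.05 vs 19.0 ± 5.44 CPM, with ranges that overlapped (log2FC 0.71 ± 0.22, adjusted p = 0.0161). Slc39a7 was at 369 ± 37.2 CPM in the ONH and 289 ± 24.5 in the ONP, a log2FC of 0.35 ± 0.09 (adjusted p = 0.00478). Another entry of the table, Gm20427, shares 80.7% of the exon bases of Slc39a7 on the same strand but held only 95 counts against 159905. The weakest call, Slc39a13 (ZIP13, of the early secretory pathway; log2FC 0.33 ± 0.13, adjusted p = 0.043), was lost in 11 of 14 fits without one library (ONH replicates 3, 5, 6 and 7 and each ONP replicate; log2FC 0.28 to 0.39) and with the replicate as a block (adjusted p = 0.0636). The remaining calls were Slc39a10, Slc39a11 and Slc30a5, lower by a log2FC of -0.73 to -0.42, and Slc30a7, higher by 0.41.

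The zinc-binding metallothioneins were higher in the ONH beside these. At 30 days Mt1, Mt2 and Mt3 had a log2FC of 0.69 ± 0.21, 0.89 ± 0.19 and 0.87 ± 0.29, with Mt1 at 1014 ± 213 CPM in the ONH and 623 ± 212 in the ONP. Mtf1, the factor that binds metal response elements, was lower (18.6 ± 4.32 vs 30.4 ± 4.49 CPM, log2FC -0.71 ± 0.15). These 4 were all that were tested in this list, and none passed the threshold at 7 days. At 30 days 21.8% of all genes were called higher in the ONH and 20.0% lower.

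Of the 5 copper and iron transporters, 1 was called higher in the ONH at 30 days (21.8% of all genes) and none was called between the regions at 7 days. Slc31a2 was at 97.2, 106 and 123 CPM (lowest, median, highest) in the ONH and 56.7, 61 and 73.6 CPM in the ONP at 30 days. The regions were fully apart, and its log2FC of 0.82 ± 0.09 had the smallest adjusted p of all members (8.48e-06). At 7 days it was at 83.2, 132, 105 and 100 CPM in the ONH and 74.4, 70.7, 83.3 and 80.5 CPM in the ONP (log2FC 0.47 ± 0.17, adjusted p = 0.103). Slc31a1 (CTR1, the main copper importer) did not pass the threshold in any comparison, with group means of 43.8 to 52.2 CPM. Of 9 copper chaperones and pumps, 5 were higher in the ONH at 30 days (21.8% of all genes) and 1 lower (20.0%). Among the 5 were Atox1 (log2FC 0.96 ± 0.17) and Cox17 (1.2 ± 0.23), which carry copper to the secretory pathway and to mitochondria. Atp7b, a copper-exporting pump, was lower (1.41 ± 1.26 vs 9.56 ± 3.79 CPM, log2FC -2.77 ± 0.57).

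None of the 3 iron transporters, Slc11a1, Slc11a2 (DMT1) and Slc40a1 (ferroportin), was called between regions. Slc11a1, an iron and manganese exporter of phagosomes, ranged from 0.769 to 109 CPM over the 22 libraries. Its highest values, 67.7 CPM in ONH replicate 7 and 109 CPM in ONP replicate 7 at 30 days, fell in the libraries with the highest sums of the 10 microglia and macrophage markers (4793 and 5374 CPM), and the part of these cells was not tested. Of the other iron genes, 4 of 19 tested were higher in the ONH at 30 days (21.8% of all genes) and 5 lower (20.0%). The ferroxidase Cp was at 351 ± 119 CPM in the ONH and 113 ± 24.6 in the ONP (log2FC 1.63 ± 0.21). Trf, the transferrin that oligodendrocytes make in quantity, was lower in the ONH at both days (log2FC -0.88 ± 0.23 at 30 days and -1.07 ± 0.24 at 7 days).

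Of 6 phosphate and magnesium transporters tested at 30 days, 3 were called lower in the ONH (20.0% of all genes), 1 higher (21.8%) and 2 did not pass. Slc20a2 was at 112, 142 and 190 CPM in the ONH and 254, 332 and 353 CPM in the ONP at 30 days, and at 140, 159, 92.4 and 161 CPM against 237, 253, 292 and 268 CPM at 7 days. The regions were apart at both days (log2FC -1.09 ± 0.13, adjusted p = 1.8e-05, and -0.91 ± 0.19, adjusted p = 0.0119). Slc34a3 (NaPi-IIc, best known from the kidney) was low, at 0.679 to 4.41 CPM in the ONH and 2.96 to 15.3 in the ONP at 30 days (log2FC -1.98 ± 0.45) and 0.359 to 2.28 against 5.83 to 8.59 CPM at 7 days (log2FC -2.32 ± 0.58). The call at 7 days was lost in 5 of 8 fits without one library (ONH library 1 and each ONP library; log2FC -2.65 to -2.0). Slc41a1, a sodium/magnesium exchanger, was lower in the ONH at 30 days (64.5 ± 17.2 vs 110 ± 19 CPM, log2FC -0.77 ± 0.17), whereas Slc41a3, placed in mitochondria, was higher (36.9 ± 10.5 vs 22.7 ± 2.45 CPM, log2FC 0.70 ± 0.16).

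**Figure D4:**
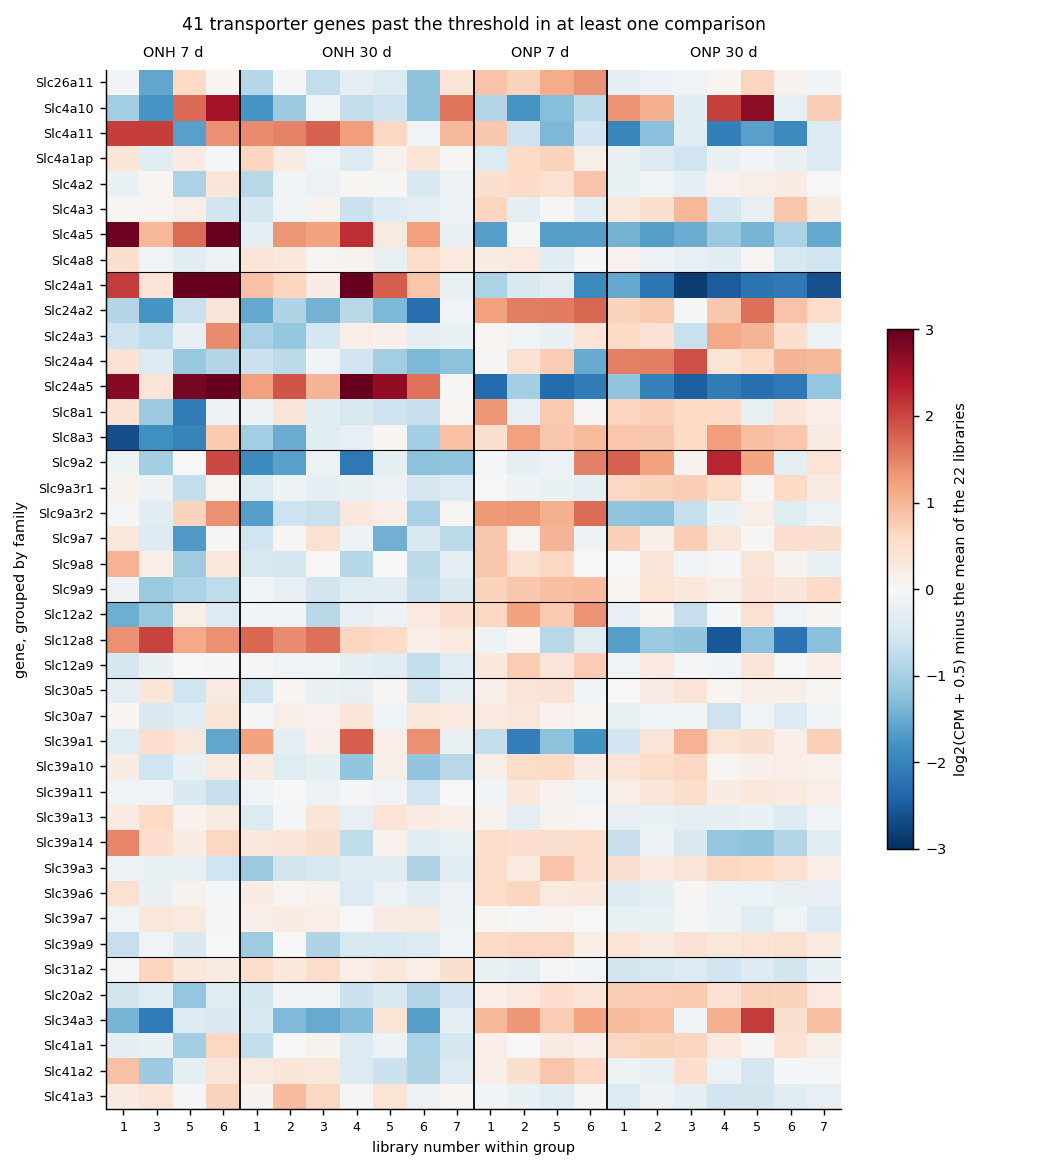
Of the 43 members past the threshold in any comparison, the 41 reported here, by family (rows, separated by lines) and library (columns), as log2(CPM + 0.5) minus the mean over the 22 libraries, with the colour scale ending at 3 on either side. Slc24a1, Slc24a5, Slc4a5, Slc4a11 and Slc12a8 are mostly red in the ONH and blue in the ONP, and Slc12a2 and Slc9a3r2 are red in all 4 ONP libraries at 7 days.

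Over time, members were called by edgeR in the ONP. Between 7 and 30 days 3 of 65 members rose (7.82% of all genes tested) and 15 fell (9.21% of all genes), and the median log2FC was -0.13 for the members and -0.01 for all genes. The groups did not overlap for 3 higher (6.20% of all genes) and 10 lower (5.79%). With libraries scaled by size only, which moved the median of all genes by 0.11, the split was 6 higher and 11 lower. DESeq2 called 5 higher (11.2% of all genes) and 16 lower (9.03%). A fit of all 4 groups called only 6 lower. Among the members not called in that fit were Slc4a1ap, Slc4a2, Slc4a10, Slc9a9, Slc24a1, Slc26a11, Slc30a7, Slc31a2 and Slc41a2.

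The cation-chloride cotransporter Slc12a2 (NKCC1, which brings sodium, potassium and chloride into the cell) fell. It was at 159, 239, 178 and 263 CPM in the ONP at 7 days and at 63.4, 100 and 142 CPM (lowest, median, highest) at 30 days. The groups did not overlap, and the log2FC was -1.10 ± 0.19 (adjusted p = 0.00333). In the ONH it was at 37.1, 46.1, 115 and 76.4 CPM at 7 days and 57 to 145 CPM at 30 days (log2FC 0.51 ± 0.30, adjusted p = 0.452). The region difference was therefore called at 7 days (log2FC -1.60 ± 0.33, adjusted p = 0.0107) and was -0.01 ± 0.19 at 30 days. Slc12a8 (9.35 to 18.2 CPM at 7 days, 2.54 to 7.67 at 30 days, log2FC -1.33 ± 0.30) and Slc12a9 (log2FC -0.51 ± 0.13, not called without 7 day library 2 or 6) fell too, so that 3 of 6 cotransporters tested were lower (9.21% of all genes). Of 11 WNK kinases and regulators, which set the activity of these cotransporters by phosphorylation, Wnk1 fell from 233 ± 23.6 to 139 ± 26 CPM (log2FC -0.77 ± 0.14), Cab39l fell (-0.42 ± 0.13) and Klhl3, which directs WNK kinases to degradation, rose (1.40 ± 0.30). Of all genes 9.21% fell and 7.82% rose.

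The 2 NHERF scaffolds moved apart. Slc9a3r2 fell from 142, 146, 123 and 187 CPM at 7 days to 24.6, 45 and 66.5 CPM (lowest, median, highest) at 30 days, and Slc9a3r1 rose from 81.3, 73.2, 70.6 and 66.9 CPM to 82.7, 123 and 135 CPM. Neither gene overlapped between the days, and the log2FC was -1.84 ± 0.24 (adjusted p = 0.000994, the smallest among the members) and 0.63 ± 0.13 (adjusted p = 0.00857). In the ONH Slc9a3r2 was at 55.8, 46.5, 92.1 and 151 CPM at 7 days, and 30 days gave 18.3, 37.8 and 72.9 CPM, with a log2FC of -0.93 ± 0.38 that did not pass (adjusted p = 0.307). In the same 7 day ONH libraries (1, 3, 5 and 6) the oligodendrocyte markers summed to 22482, 18973, 23822 and 36038 CPM. The 8 endothelial markers summed to 99.8, 42.9, 381 and 300 CPM there. The part of either cell type in the level of Slc9a3r2 was not tested. Of the 9 sodium/proton exchangers and scaffolds tested, 1 rose (7.82% of all genes) and 3 fell (9.21%). The exchangers that fell included Slc9a9, from 49.3 ± 3.45 to 35.1 ± 3.92 CPM (log2FC -0.52 ± 0.10).

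**Figure D5:**
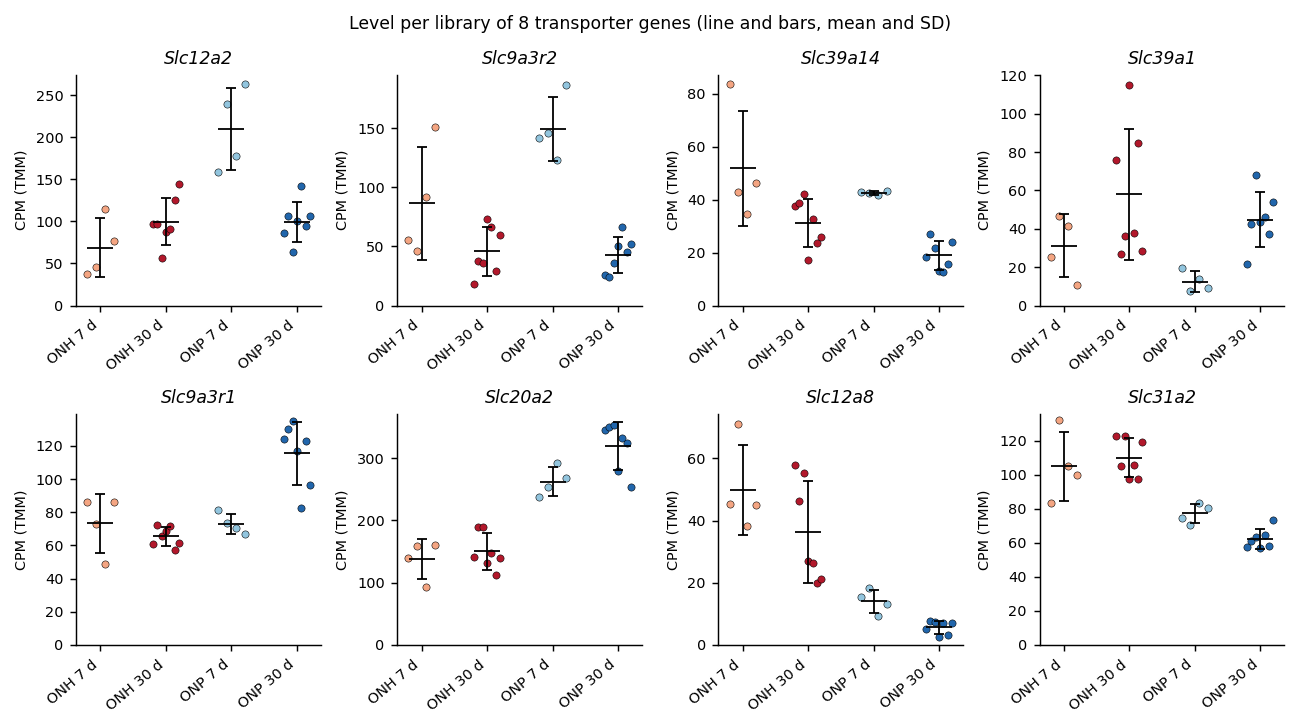
Level of 8 members in each library (CPM), with the mean and SD of each group as a line and bars. In the ONP Slc12a2, Slc9a3r2 and Slc39a14 are lower at 30 than at 7 days and Slc39a1 and Slc9a3r1 higher, with no overlap in these 5, while Slc20a2, Slc12a8 and Slc31a2 separate the regions at 30 days.

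Zinc importers also moved in both directions in the ONP. Slc39a1 (ZIP1, a plasma membrane importer) rose from 19.6, 7.44, 13.6 and 9.03 CPM to 21.8, 43.6 and 68.1 CPM (lowest, median, highest), with no overlap and a log2FC of 1.82 ± 0.32 (adjusted p = 0.00345). In the ONH the same gene spread from 10.7 to 46.9 CPM at 7 days and from 26.8 to 115 CPM at 30 days (log2FC 0.86 ± 0.47, adjusted p = 0.417). Slc39a14 fell from 43.1, 42.5, 41.7 and 43.5 CPM to 12.7, 18.4 and 26.9 CPM (log2FC -1.20 ± 0.19, adjusted p = 0.00203), again without overlap. Its ONH values were 34.8 to 83.8 CPM at 7 days and 17.3 to 42 CPM at 30 days (log2FC -0.76 ± 0.27, adjusted p = 0.259). Slc39a6 (ZIP6, an importer of the same group) fell from 81.2 ± 9.68 to 50.8 ± 4.80 CPM (log2FC -0.71 ± 0.10, adjusted p = 0.00125). Of the 19 zinc transporters tested 1 rose (7.82% of all genes), 3 fell (9.21%) and 15 did not pass. The third to fall was Slc30a7 (ZnT7, of the Golgi), with a log2FC of -0.48 ± 0.13, not called without 7 day library 1, 2 or 6. None of the 4 metallothionein and zinc sensing genes tested passed in the ONP.

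Among the bicarbonate and anion exchangers 1 of 14 rose (7.82% of all genes) and 3 fell (9.21%). Slc4a10 (NCBE, a sodium-dependent bicarbonate transporter) was at 0.429, 0, 0.205 and 0.487 CPM at 7 days (25 counts together) and at 0.837, 3.04 and 10.5 CPM at 30 days (609 counts together), without overlap. Its log2FC of 3.75 ± 0.89 (adjusted p = 0.015) was not called by limma-voom. Slc26a11, an anion transporter of lysosomes, fell from 19.7 to 32.2 CPM down to 9.93 to 19.6 CPM (log2FC -1.03 ± 0.19). Slc4a2 (AE2, a chloride/bicarbonate exchanger) fell from 131 ± 17.2 to 86.3 ± 11.7 CPM (log2FC -0.63 ± 0.12), though 13.7% of its exon bases lie opposite Fastk. The adaptor Slc4a1ap had a log2FC of -0.65 ± 0.19 (adjusted p = 0.0375) that was lost in 9 of 11 fits without one library (each 30 day replicate but 5, and 7 day libraries 2, 5 and 6). Car2 and Car14 were the 2 of 11 carbonic anhydrases that fell (-0.90 ± 0.23 and -0.80 ± 0.20), where 9.21% of all genes did.

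In each of the remaining families edgeR called 1 member, which fell (9.21% of all genes). DESeq2 added Slc24a2 as lower (log2FC -0.70) and Slc24a4 as higher (1.13), and limma-voom also called Slc24a2, while edgeR gave -0.73 (adjusted p = 0.0546) and 1.11 (adjusted p = 0.0892). Slc24a1 went from 1.57 ± 0.864 to 0.266 ± 0.243 CPM (log2FC -2.55 ± 0.71, adjusted p = 0.0288), with overlapping ranges, and the call was lost in 4 of 10 fits without one library (30 day replicate 4, 7 day libraries 1, 2 and 5; log2FC -2.83 to -2.27). Beside it 1 of 6 photoreceptor markers tested was called lower (Gnat1, log2FC -2.36 ± 0.69) and 3 of 7 pigment markers, whose sums were 146 to 184 CPM at 7 days and 79.7 to 121 CPM at 30 days. The part of these cells was not tested. Slc31a2 fell by 0.34 ± 0.09 on the log2 scale (77.2 ± 5.72 to 62.2 ± 5.85 CPM, adjusted p = 0.02), a call lost without 7 day library 5 or 6. Slc41a2 (log2FC -0.70 ± 0.21, adjusted p = 0.0402) was lost in 9 of 11 such fits (each 30 day replicate but 3, and 7 day libraries 2, 5 and 6). Of 11 sodium pump genes tested, 2 were called lower (9.21% of all genes), among them Atp1b3 (-0.60 ± 0.15), and 2 higher (7.82%), Atp1b1 (1.33 ± 0.26) and Fxyd6 (0.62 ± 0.15). Of 19 iron genes tested, 3 fell (9.21% of all genes) and 0 rose (7.82%). The 3 were Aco1, Fbxl5 and Ncoa4, which sense iron or release it from ferritin (log2FC -0.70 ± 0.09, -0.44 ± 0.08 and -0.39 ± 0.08). Of 9 copper chaperones and pumps tested, 2 fell (9.21%) and 2 rose (7.82%). Among those that rose was the antioxidant copper enzyme Sod1, from 60.6 ± 13.6 to 136 ± 21.5 CPM.

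Markers of some other cells fell in the ONP over the same interval (9.21% of all genes did), 8 of 10 for oligodendrocytes and 5 of 8 for endothelial cells. The endothelial sums were 108 to 141 CPM at 7 days and 12.2 to 93.1 CPM at 30 days. Of the mural markers 2 of 6 tested fell, of the neuronal ones 3 of 7 (1 rose) and of the surface epithelial ones 1 of 6. None was called of 10 microglia and macrophage, 8 fibroblast and meningeal and 4 oligodendrocyte precursor markers. The microglia and macrophage sums were 1511 to 2716 CPM at 7 days (median 1982) and 240 to 5374 CPM at 30 days (median 473). With such a spread the absence of a call does not show that these sums stayed the same. One 30 day library, replicate 5, had an oligodendrocyte sum of 84745 CPM, within the 7 day range, and in it Slc12a2 was at 142 CPM, Slc9a3r2 at 66.5, Slc24a2 at 101 and Slc26a11 at 19.6 CPM, the highest 30 day values of each. Slc39a14 in that library was at 12.7 CPM, the lowest value at 30 days. Replicate 5 also had the highest endothelial sum (93.1 CPM) and the lowest astrocyte sum (15691 CPM) of the 30 day ONP libraries. Its microglia and macrophage sum of 3646 CPM was below that of replicate 7 only (5374 CPM). Without replicate 5 the counts were 5 higher and 15 lower. The part of these cells in the changes was not tested.

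In the ONH none of 68 members passed the threshold between 7 and 30 days by edgeR, as was true of all 15668 genes tested (0% called). At an unadjusted p under 0.05 there were 9 members (13.2%), against 13.9% of all genes, and DESeq2 called 0 of 69 members and 2.49% of all genes. The groups of every member tested overlapped (2.28% of all genes had groups that did not). The median log2FC was -0.20 for the members and -0.02 for all genes, and 46 of the 68 members had a negative log2FC. The spread between libraries estimated by edgeR (biological coefficient of variation) was 48.2% in this fit and 35% in the ONP one. The absence of calls here therefore does not show that the members stayed the same. The smallest adjusted p of a member was 0.249, for Slc30a9. The larger estimates were for Slc9a2 (-2.39 ± 0.95), Slc24a1 (-2.01 ± 0.86) and Slc26a7, an anion exchanger (-1.97 ± 0.68). The photoreceptor sum in the same libraries was 209 to 6106 CPM at 7 days and 160 to 2672 CPM at 30 days.

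The test of the difference between the ONP and the ONH in the change from 7 to 30 days called none of 68 members, against 0.543% of all genes, with 13 members (12.6% of all genes) at an unadjusted p under 0.05. DESeq2 called 3 higher (0.975% of all genes) and 2 lower (1.30%). The members nearest to the threshold were Slc12a2, with a difference of -1.61 ± 0.38 on the log2 scale (adjusted p = 0.0529), Slc9a3r1 with 0.83 ± 0.21 (adjusted p = 0.0658) and Slc9a9 with -0.83 ± 0.22 (adjusted p = 0.0841). Slc12a2 was called by DESeq2, by limma-voom, with the filter of at least 10 counts in every library, and with the 30 day pairs as a block (-1.72). Slc9a3r1 was called by DESeq2, with that filter and with libraries scaled by size only (difference 0.87 to 0.99). Slc9a9 was called by DESeq2 (-0.79) and with the 30 day pairs as a block (-0.91). Slc4a10 and Slc26a7 were called by DESeq2 only among these alternatives.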

How the data were processed

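Per the paper, the authors aligned reads with STAR 2.6.1d, quantified them with Salmon 0.14.2 on mouse transcripts (mm10) with sums per gene. The authors deposited expected counts for 29367 genes in 22 libraries, rounded to whole numbers and not normalized, and a table of variance-stabilized values that was not used here. Comparisons were run with edgeR 4.0.16 in R 4.3.3 (filterByExpr by group, TMM, quasi-likelihood test, Benjamini-Hochberg adjustment over all genes tested, threshold 0.05). The SE of a log2FC is its size over the root of the F statistic. Only the groups of a comparison entered its fit. The interaction used all 4 groups. Exon lengths and overlaps came from GENCODE M21 (GRCm38), which matched all 85 members. Named members are those called in any comparison (up to 10 per direction, the rest by counts), the 2 with the highest CPM per family and the 3 adaptors, and partner genes are named when called, up to 4 per list and comparison. Members, families, marker and partner lists were chosen with earlier results of these data known, and Slc11a1, Slc11a2, Slc26a7, Slc30a5, Slc30a7, Slc39a10, Slc39a11, Slc39a12, Slc39a13, Slc40a1, Slc4a3, Slc8a1 and Slc9a8 were named after their values were seen. Alternatives were DESeq2 1.42.0, limma-voom (limma 3.58.1), other scalings and filters, all 4 groups in one fit, the replicate as a block, and each library left out. Some genes that entered the fits and counts are not reported here by name. Per the paper, ONH and ONP tissue was taken from the same mice. At 30 days equal replicate numbers were taken to mark such tissue, which the sample titles do not state. The deviations of same-numbered libraries correlated (0.108 to 0.546, all 7 pairs over 0.1). The ONP library that correlated best had the same number for ONH replicates 3, 5 and 7, and another number for 1, 2, 4 and 6. The 7 day columns carry numbers that do not match the replicate numbers of the labels, so they are called libraries 1, 3, 5 and 6 (ONH) and 1, 2, 5 and 6 (ONP) and were not paired, although 1, 5 and 6 occur in both regions. The SD, the SE and the p-values rest on the spread between these pools, and the detection limit rests on counts only.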

Additional observations from a re-analysis of the deposited data

Results flagged for a closer look

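Of 152 groups tested over the 38 named members, 16 held a library far from the others of its group by Dixon's criterion, where chance gives about 1 in 20. At 7 days ONH library 6 was high in Slc24a3 (13.1 CPM, the next at 3.76), Slc8a3 (6.06, next 0.568) and Slc9a2 (8.35, next 1.71) and low in Slc39a3 (47.4, next 61). It held the highest photoreceptor and pigment marker sums of all libraries. ONP library 6 at 7 days was high in Slc9a2 (5.88 CPM) and low in Slc39a9 (49.8), and ONP library 2 was high in Slc24a5 (1.02) and Slc4a5 (1.02).

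At 30 days ONP replicate 5 was high in Slc24a2 (101 CPM, next 57.4), Slc26a11 (19.6) and Slc34a3 (15.3). This library had the highest oligodendrocyte and endothelial sums and the lowest astrocyte sum of its group. ONP replicate 1 was high in Slc24a1 (0.743 CPM) and ONP replicate 3 in Slc41a2 (8.37). In the ONH, replicate 4 was high in Slc24a1 (52.3 CPM), replicate 1 in Slc30a9 (338) and replicate 7 in Slc4a10 (4.64). The part of other cells in these values was not tested.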

How the results depend on the processing

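No call changed direction under any alternative, and the median log2FC of the members stayed below 0 in the comparisons of days and of regions (-0.31 to -0.02). For ONP 30 vs 7 days, DESeq2 called 5 members higher and scaling by library size 6, and a fit of all 4 groups called 6 lower. Leaving out a library gave 3 to 5 higher (5 without ONP 30 day replicate 5) and 11 to 15 lower. For ONH vs ONP at 7 days, DESeq2 called 7 higher, the filter of at least 10 counts in every library 2, and the fit of all 4 groups 8. Leaving out a library gave 3 to 6 higher and 5 to 11 lower (5 without ONP library 2 or 5). For the interaction, DESeq2 called 3 higher and 2 lower, scaling by library size 1 higher, the 10 count filter 1 higher and 1 lower, limma-voom 1 lower, and the replicate block (30 day pairs, limma-voom) 2 lower, Slc12a2 and Slc9a9. Leaving out a library gave 0 to 1 in each direction (1 lower without ONH 30 day replicate 3 or ONH 7 day library 1, and 1 in each direction without ONP 30 day replicate 5 or ONH 7 day library 5).

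With the replicate as a block at 30 days, 12 members were higher and 24 lower, against 13 and 21 without it. Slc39a13 was lost, Slc12a4, Slc12a7 and Slc4a10 were gained, and no other call changed. The 7 day libraries were not paired, because the numbers in their column names are not the replicate numbers of the labels, and the effect of pairing the shared numbers 1, 5 and 6 was not tested. For ONH vs ONP at 30 days, leaving out a library gave 11 to 13 higher and 17 to 22 lower. Depth limits Slc24a1, Slc24a5 and Slc4a5 in the ONP, where some libraries held 3 counts or fewer.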
